A study of Mus musculus with 12 samples.

Results

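The genes described here are those of the cytosolic ribosome: 46 genes of the 11015 that have a probe set annotated to exactly 1 symbol, read by 93 of the 20523 probe sets in the deposited table. They were chosen by symbol alone (Rpl or Rps and a digit, the P stalk genes, and Rpsa, without S6 kinases and pseudogenes). They comprise 22 genes of the large subunit, 2 of the P stalk and 22 of the small subunit. Of the 46, 4 belong to a list of relatives of the core proteins: Rpl7l1, Rpl22l1, Rps27l and Rps19bp1. The last of these matches the symbol rule but encodes a regulator of the deacetylase SIRT1 rather than a subunit of the ribosome. A further 32 symbols of the family occur only in probe sets that carry several symbols and are not among the members.

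Expression was measured with Affymetrix mouse arrays in cultured aortic endothelial cells from mice aged 4 weeks. DKO cells were Ets1-/- with Ets2fl/fl alleles and received a lentivirus carrying eGFP and Cre. Ets2KO cells were Ets1+/+ with Ets2fl/fl alleles and received the same Cre virus. Ets1KO cells were Ets1-/- with Ets2fl/fl alleles and received a lentivirus with eGFP alone, and WT cells were Ets1+/+ and Ets2+/+ with that eGFP virus. Every group was therefore infected, Cre cannot be told apart from loss of Ets2, and floxed Ets2 alleles were present in all groups other than WT. Each group has 3 columns of values titled as biological replicates, and nothing says whether they came from separate animals, so p-values measure the spread between these samples, which may be technical. In 20521 of 20523 probe sets, among them all 93 read here, DKO column 3 holds the average of DKO columns 1 and 2, so 11 arrays were analysed, of which 2 are DKO.

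Several features of the arrays bear on the values below. The median of all probe sets was 8.30 and 8.29 in the DKO arrays and 9.05 to 9.15 in the 9 others (log2). The shortfall of DKO against WT was not the same at all levels, being -0.79 at the middle of the sorted values, -0.57 at the 90th percentile and -0.38 at the 99th. Differences are given relative to array medians (each array's own median subtracted), and beside them as deposited. Ets1 at its brightest probe set, 1452163_at, was 10.02 and 10.29 in DKO and 9.84 to 10.26 in WT (log2, as deposited). That probe set thus goes against the DKO label. In Ets1KO it read 8.31, 8.76 and 9.17, below every WT array but without a call. Ets1 1422027_a_at read 6.49 and 7.05 in DKO and 8.69 to 8.83 in WT. Relative to array medians, DKO against WT was 0.90 at 1452163_at and 0.78 at 1426725_s_at, both called higher (limma adjusted p = 0.0235 and 0.0394). It was 0.18 at 1422028_a_at, not called, and -1.20 at 1422027_a_at, called lower (limma adjusted p = 0.668 and 0.00750). Ets2 at its brightest probe set was 11.02 and 9.63 in DKO, 9.63, 9.35 and 10.13 in Ets2KO, and 9.72, 10.01 and 10.70 in WT, so these groups overlapped, and Ets2KO against WT was not called (-0.42 relative to array medians, adjusted p = 0.554). "DKO", "Ets2KO" and "Ets1KO" mean throughout the arrays labelled so, and the positions of the probe sets relative to the deleted parts were not used here. Of 16 endothelial markers 5 were measured, by 12 probe sets. The mean of those probe sets lay below the array median on every array (-1.36 and -1.09 in DKO, -1.25 to -0.64 in Ets2KO, -1.87 to -1.56 in Ets1KO and -1.47 to -0.68 in WT). At the brightest probe set of each gene, Cd34 averaged 1.44 in Ets2KO and 1.57 in WT, and Eng 1.31 and 0.43, relative to array medians. Flt1 averaged 0.34 in DKO, and all other group means of the 5 genes lay below the array median. For fibroblasts 7 of 8 markers were measured. Their 13 probe sets averaged 2.34 and 1.63 in DKO, 0.51 to 1.60 in Ets2KO, 0.74 to 1.13 in Ets1KO and 0.94 to 1.41 in WT, relative to array medians. Xist is the transcript of the inactive X chromosome. It read 12.98 and 13.19 in DKO and 13.07 to 13.52 in Ets1KO (log2, as deposited). In Ets2KO it read 7.34 to 7.50, and in WT 7.26, 13.19 and 11.45. Every DKO array was thus above every Ets2KO array for Xist. The part of these markers and of Xist in the results was not tested. Since these are bulk samples, fewer cells of a type and less RNA per cell cannot be told apart.

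Ribosomal proteins bind ribosomal RNA to form the small subunit, which reads the messenger RNA, and the large subunit, which forms peptide bonds. Their messenger RNAs are among the most abundant of a growing cell and share a pyrimidine stretch at the 5′ end, the TOP motif, through which mTOR and the RNA-binding protein LARP1 set their translation and stability. Many promoters of the family hold binding motifs of ETS-domain factors, best known for the factor GABP, whose recognition core GGAA is shared by Ets1 and Ets2.

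The promoter letters were read because Ets1 and Ets2, the factors named in the labels, share this core. That choice was made after the data were seen. RefSeq promoters (GRCm38.p6, 250 bases before to 50 after the annotated start) were found for 41 of the 46 genes, and were not found for Rpl7, Rpl8, Rps14, Rps20 and Rps29. CGGAAG, searched on both strands (CTTCCG on the other), occurred in 29 of the 41 windows (70.7%), against 17.2% of the 27025 promoters in the table. A start of C followed by 4 pyrimidines, the letters of a TOP start, was present at 8 of the 41 genes (19.5%), against 2.49% of all. The 100 bases before the start follow for Rps6, Rps7, Rpl38 and Rpl41, which hold the hexamer and were called higher in DKO than in WT relative to array medians, for Rps25, which holds it and was not called in that comparison but had the largest interaction value of those named, and for 3 genes without it, of which Rpl14 was called higher, 1 probe set of Rpl7l1 was called lower and Rps9 was not called. They are read 5′ to 3′ on the gene's strand, with CGGAAG or CTTCCG in capitals.
Rps6 (chr4:86857368-86857467, minus strand): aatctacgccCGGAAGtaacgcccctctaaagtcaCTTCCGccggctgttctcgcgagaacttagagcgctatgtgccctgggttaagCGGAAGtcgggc
Rps7 (chr12:28635954-28636053, minus strand): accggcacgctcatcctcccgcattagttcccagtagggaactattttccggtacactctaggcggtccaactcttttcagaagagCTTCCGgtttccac
Rpl38 (chr11:114668480-114668579, plus strand): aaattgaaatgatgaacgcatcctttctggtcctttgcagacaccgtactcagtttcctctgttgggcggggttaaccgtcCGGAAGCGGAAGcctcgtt
Rpl41 (chr10:128549169-128549268, minus strand): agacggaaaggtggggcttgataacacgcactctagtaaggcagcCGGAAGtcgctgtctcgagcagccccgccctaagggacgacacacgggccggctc
Rps25 (chr9:44407614-44407713, plus strand): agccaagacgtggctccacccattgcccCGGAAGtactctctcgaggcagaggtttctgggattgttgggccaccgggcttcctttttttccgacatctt
Rpl14 (chr9:120571417-120571516, plus strand): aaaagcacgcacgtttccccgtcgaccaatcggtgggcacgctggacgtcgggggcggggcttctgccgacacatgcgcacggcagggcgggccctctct
Rpl7l1 (chr17:46782657-46782756, minus strand): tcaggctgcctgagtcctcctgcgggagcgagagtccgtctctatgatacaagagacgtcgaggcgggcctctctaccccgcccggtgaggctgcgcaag
Rps9 (chr7:3703941-3704040, plus strand): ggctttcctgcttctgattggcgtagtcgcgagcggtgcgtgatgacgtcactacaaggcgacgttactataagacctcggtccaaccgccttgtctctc
The Rps6 window holds the hexamer 3 times in these 100 bases, from 90 to 12 bases before the start, and Rpl38 holds it 2 times in tandem, from 19 to 13 bases before it. The median difference of the brightest probe set was 0.45 with the hexamer (-0.08 to 1.60) and 0.35 without it (-0.17 to 0.83) in DKO against WT, 0.01 and 0.03 in Ets2KO against WT, and 0.02 and 0.01 in Ets1KO against WT (log2, relative to array medians, 29 and 12 genes), and the ranges of both sets of genes overlapped. A match is a description of these letters and does not show that a factor binds there.

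The ribosomal protein genes were among the brightest on every array. Of their 93 probe sets, 70 (75.3%) lay in the brightest decile of all probe sets by mean level (at or above 11.40, log2 as deposited), and 37 of the 46 genes had their brightest probe set there. The members' median stood at percentile 98.76 and 99.01 of the array in DKO and at 99.09 to 99.27 in the 9 other arrays. In those 9 arrays 35 of the 46 brightest probe sets exceeded 13 throughout, and 26 lay within 1 log2 unit of the highest value on the array. The highest values were 14.87 to 15.15, so these probe sets read close to the top of the scale. Rpl41, which encodes the smallest protein of the ribosome, read close to the array maximum, at 14.87 and 14.88 in DKO, 14.83 to 14.91 in Ets2KO, 14.85 to 14.92 in Ets1KO and 14.91 to 14.99 in WT. Levels of different probe sets are not corrected for length or probe affinity, so no order among genes is drawn from them.

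The spread of the bright probe sets outside DKO was small on the log2 scale, at values near the array maximum, and the part of that closeness in the spread was not tested. Of the 70 in the brightest decile, 62 spanned less than 0.5 over the 9 arrays, with a median span of 0.25, against 0.724 for all probe sets of that decile. The median SD within a group was 0.06 in Ets2KO, 0.05 in Ets1KO and 0.06 in WT, against 0.17, 0.14 and 0.18 for all probe sets of that decile. In the DKO pair it was 0.10, against 0.19. Rps3, a protein of the mRNA entry channel, spanned only 0.05 at its brightest probe set, from 14.42 to 14.47 over the 9 arrays. Rplp0, the base of the P stalk that recruits elongation factors, read 14.05 and 14.08 in DKO, 14.56, 14.57 and 14.63 in Ets2KO, 14.56, 14.52 and 14.52 in Ets1KO, and 14.55, 14.55 and 14.59 in WT. Both DKO arrays were lower than every other array for Rplp0 as deposited.

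**Figure D1:**
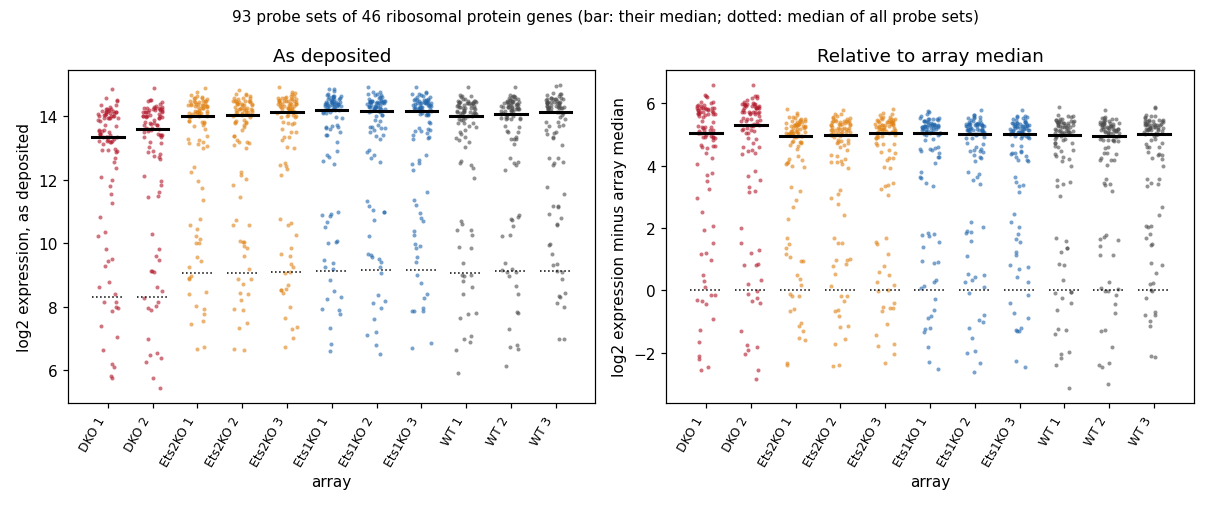
Log2 expression of the 93 ribosomal protein probe sets (points) on each of 11 arrays, as deposited at left and minus the array median at right. Solid bars are the members' median and dotted bars the median of all probe sets. The members' median was 13.36 and 13.59 in DKO and 14.01 to 14.19 elsewhere as deposited, and 5.06 and 5.30 in DKO against 4.94 to 5.06 elsewhere relative to array medians.

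Whether loss of Ets1 changes these genes was asked by comparing Ets1KO with WT. None of the 93 probe sets passed (limma, Benjamini and Hochberg adjusted p below 0.05 over all 20523 probe sets), where 0.00487% of all probe sets did (1 of 20523, which was lower, and 0 higher). The median difference was 0.04, against -0.01 for all probe sets, and 3 of the 93 had an unadjusted p below 0.05, where 9.03% of all probe sets did. Groups did not overlap at 18 of 93, against 18.7% of all probe sets. As deposited, where again 0.00487% of all passed, and after quantile normalization the count was also 0. The largest differences at the brightest probe sets were 0.57 (SE 0.40, adjusted p = 0.695) for Rpl22l1, the paralogue of Rpl22, and 0.32 (SE 0.16, adjusted p = 0.584) for Rps6, the substrate of S6 kinases. Rps25, a small subunit protein used by viral internal ribosome entry sites, had -0.32, and Rpl11, which with 5S RNA can bind the p53 inhibitor Mdm2, had -0.17. The value of Rpl22l1 rests on 1 array: it read 13.60, 13.57 and 13.52 in Ets1KO and 13.55, 13.50 and 11.78 in WT, and without WT replicate 3 the difference was -0.02.

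Loss of Ets2, read by setting Ets2KO against WT, likewise gave no call among the 93 probe sets, where 0.633% of all probe sets passed (0.336% higher and 0.297% lower), nor as deposited, where 0.58% did. The median difference was 0.01, as for all probe sets, 7 of the 93 had an unadjusted p below 0.05, against 20.6% of all probe sets, and groups did not overlap at 10 of 93, against 28.3% of all. Apart from Rps9, described below, the widest difference was that of Rpl22 1448398_s_at, 1.13 without a call. It read 11.36, 11.46 and 12.45 in Ets2KO and 10.40, 10.75 and 10.80 in WT. The 3 probe sets of Rpl22 ran from -0.03 to 1.13 and the 5 of Rps24 from -0.02 to 0.82. At the brightest probe sets, the 2 largest differences in each direction came from outside the brightest decile. Rps25 read 10.01, 10.06 and 9.66 in Ets2KO and 10.40, 10.74 and 11.17 in WT, with every Ets2KO array below every WT array, a difference of -0.84 (SE 0.23, adjusted p = 0.100). A brighter probe set annotated to Rps25 together with other symbols differed by -0.01. Rpl14, of the large subunit, had -0.49 (adjusted p = 0.208) at a probe set near 9, whereas 5 probe sets that share its symbol with another lay between -0.09 and -0.06. Rpl12, at the base of the stalk, had 0.42 (adjusted p = 0.608) at a probe set that read between 8.63 and 10.56 over the WT arrays, and 2 brighter shared probe sets gave -0.11 and -0.08. Rpl27a had 0.17 (adjusted p = 0.593).

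One probe set stood out in the WT arrays. Rps9, a small subunit protein near the mRNA entry channel, was read by 3 probe sets, and 1434624_x_at gave 8.16 and 8.03 in DKO, 7.77, 7.92 and 8.52 in Ets2KO, 8.22, 8.12 and 7.94 in Ets1KO, and 12.51, 12.55 and 8.31 in WT. WT replicates 1 and 2 were higher than every other array, and WT replicate 3 lay within the range of the knockouts. Of the 20523 probe sets it was the only one at which those 2 arrays exceeded all others by more than 3 (a gap of 3.58). No call resulted: the difference was -2.23 (adjusted p = 0.132) in DKO, -3.03 (adjusted p = 0.134) in Ets2KO and -3.08 (adjusted p = 0.437) in Ets1KO, each against WT by limma. Without WT replicate 3 it was -3.65, -4.45 and -4.49 (adjusted p = 5.17e-05, 0.000559 and 0.000290), and this was the only member called in either single-loss comparison when 1 array was left out. The brightest Rps9 probe set, 1433689_s_at, did not show the pattern, with 13.23 and 13.62 in DKO, 14.33, 14.38 and 14.58 in Ets2KO, 14.42, 14.46 and 14.40 in Ets1KO, and 14.33, 14.38 and 14.41 in WT.

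**Figure D2:**
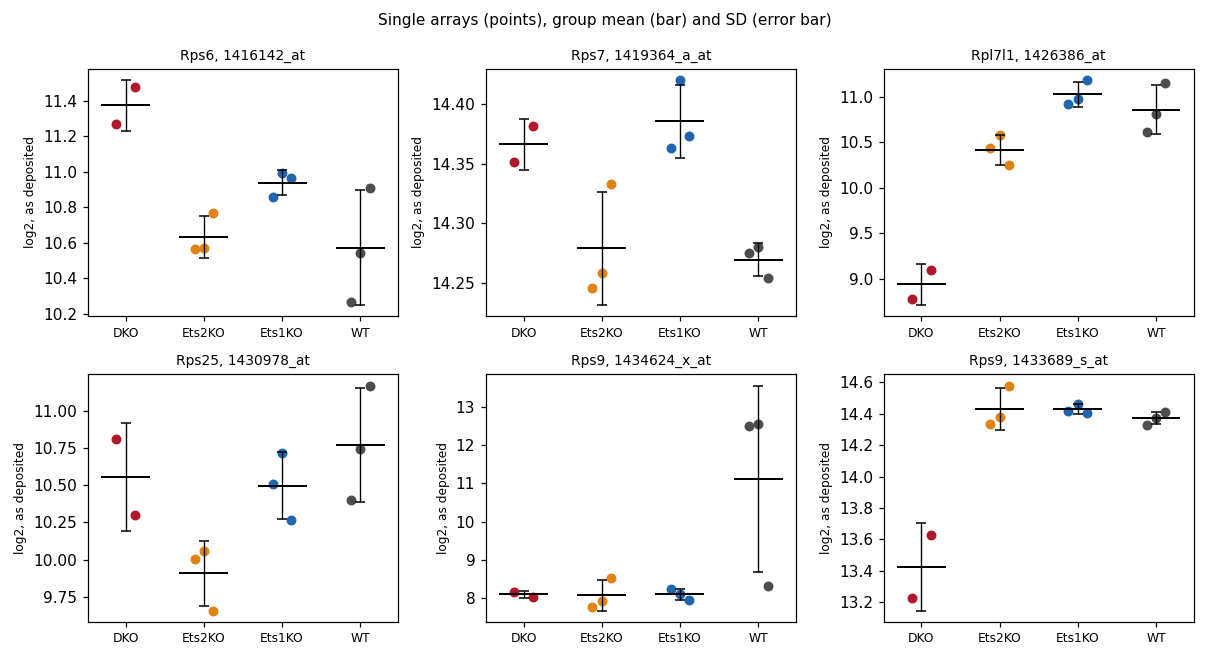
Log2 expression as deposited of 6 probe sets in DKO, Ets2KO, Ets1KO and WT, with arrays as points, group means as bars and SD as error bars, each panel on its own axis. At Rps6 both DKO arrays lie above the others, at this Rpl7l1 probe set both lie below, and at Rps9 1434624_x_at 2 WT arrays stand at 12.51 and 12.55 while all others lie at or under 8.52.

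In DKO against WT the direction for the family depended on the scale. Relative to array medians 43 probe sets rose and 2 fell of 93, where 36% of all probe sets passed (21.6% higher and 14.4% lower), and the members' median was 0.38 against 0.16 for all probe sets. As deposited 1 rose and 51 fell, where 48.8% of all passed (2.87% higher and 46% lower), and the median was -0.42 against -0.63. After quantile normalization 3 rose and 7 fell, where 16.7% of all probe sets were higher and 15.5% lower, and the median was -0.03. Of the members, 12 probe sets were called higher on the first scale and lower on the second, as were 97 of the 20523. Relative to array medians, groups did not overlap at 61 of 93 with DKO higher and at 6 with DKO lower, against 33.8% and 22.7% of all probe sets. On that scale the members in the brightest decile had a median of 0.44, all probe sets of that decile 0.26, and the members below it -0.01. The call counts also depended on single arrays: 25 passed without DKO replicate 2, and 29 without WT replicate 2. With only the DKO and WT arrays in the fit 8 passed. The shares of all probe sets called in these fits are not given here, so a general loss of calls cannot be told apart.

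Probe sets of both subunits were called relative to array medians, with 18 rises and 1 fall of 43 probe sets in the large subunit, 24 and 1 of 48 in the small subunit, and 1 rise of 2 in the P stalk, where 21.6% of all probe sets were higher and 14.4% lower. As deposited these were 0 rises and 24 falls in the large subunit, 1 and 25 in the small subunit and 0 and 2 in the P stalk, where 2.87% of all were higher and 46% lower. Taking the brightest probe set of each gene, 26 of 46 rose and none fell relative to array medians, whereas 1 rose and 24 fell as deposited. Over the small subunit head 12 of 24 probe sets rose and 1 fell, and around the peptide exit of the large subunit 6 of 11 rose, relative to array medians. As deposited none rose in either list, and 13 of 24 and 3 of 11 fell.

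**Figure D3:**
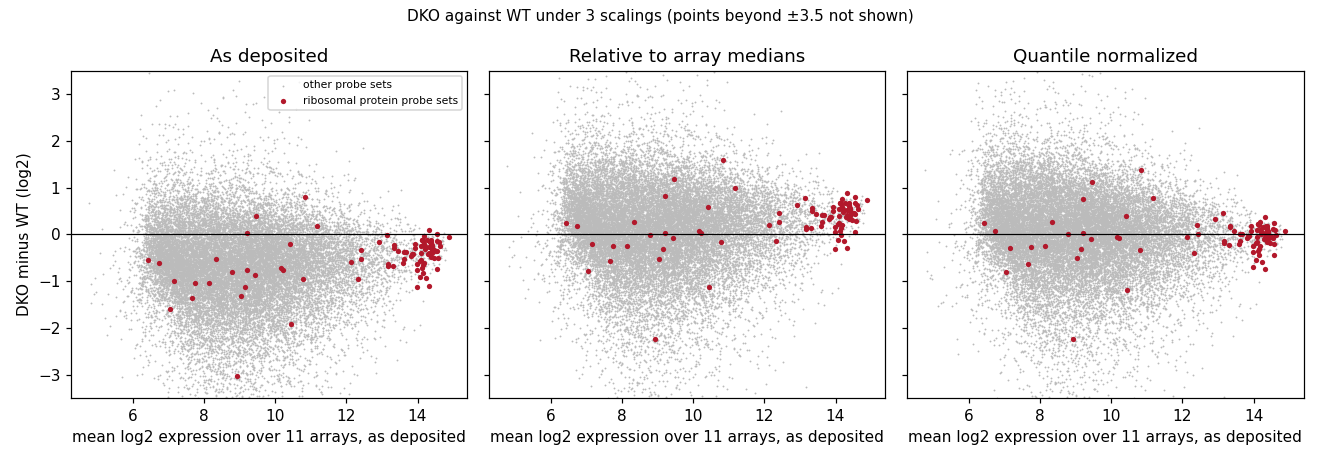
DKO minus WT (log2) against mean log2 expression over 11 arrays for the ribosomal protein probe sets (red) and all others (grey), as deposited, relative to array medians and quantile normalized. The members' median is -0.42, 0.38 and -0.03 on these scales, and most members sit at the bright end.

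The largest rise at the brightest probe sets of 1 symbol was that of Rps6, at 1416142_at. It read 11.27 and 11.48 in DKO, 10.56, 10.57 and 10.77 in Ets2KO, 10.86, 10.995 and 10.96 in Ets1KO, and 10.27, 10.54 and 10.91 in WT. Both DKO arrays were above all 9 others, even as deposited. Against WT the difference was 1.60 after subtraction of array medians (SE 0.18, limma adjusted p = 0.000353), 0.80 as deposited (adjusted p = 0.00684) and 1.37 after quantile normalization (adjusted p = 0.000853), and it was called in each of 11 fits without 1 array (1.47 to 1.75). Against Ets2KO it was 1.51 relative to array medians and 0.74 as deposited (adjusted p = 0.000416 and 0.0102). Against Ets1KO it was 1.28 (adjusted p = 0.00102) and, as deposited, 0.43 (adjusted p = 0.0866). The other probe sets that carry the symbol gave smaller values: 8, annotated to Rps6 and at least 1 more symbol, differed from WT by 0.13 to 0.65 relative to array medians, of which 5 were called higher. As deposited those 8 differed by -0.66 to -0.14, with 4 called lower, and after quantile normalization none was called.

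Of the rises described next, none passed as a rise on the deposited scale, and Rps7 (0.38, adjusted p = 0.0307) and Rpl14 (0.75, adjusted p = 0.0295) passed after quantile normalization. Rps7, another ribosomal binder of Mdm2, read 14.35 and 14.38 in DKO and 14.28, 14.28 and 14.25 in WT, a difference of 0.89 on the median-centred scale (SE 0.11, adjusted p = 0.000648) and 0.10 as deposited (adjusted p = 0.497). Rpl38, known in mouse for its role in translating Hox mRNAs, read 14.52 and 14.52 in DKO and 14.48, 14.53 and 14.53 in WT, which gave 0.80 on the median-centred scale (SE 0.11, adjusted p = 0.000930) and 0.00 as deposited (adjusted p = 0.971). Both probe sets read within 1 log2 unit of the array maximum, and the 2 scales differ by the gap in array medians. Rpl41 (0.73, adjusted p = 0.00150), the X-linked Rps4x (0.64, adjusted p = 0.00328) and Rpsa, also known as the laminin receptor (0.55, adjusted p = 0.00770), passed in the same way and differed by -0.06, -0.16 and -0.24 as deposited, with no call. Rps7, Rpl38, Rpl41, Rps4x and Rpsa were each called relative to array medians in all 11 fits without 1 array. Xist differed between groups and among the WT arrays, as given above, and its part in the value of Rps4x was not tested. Other probe sets of Rps7, Rpl41 and Rps4x gave lower values. The other Rps7 probe set had 0.37 and, as deposited, -0.42, and a shared one had 0.20 and -0.60, both called lower as deposited. The 4 of Rpl41 ran from -0.80 to 0.73, with 2 called lower as deposited. The other Rps4x probe set had 0.18 and, as deposited, -0.61, called lower. For Rpl14, 5 brighter shared probe sets ran from -0.43 to 0.78, with 3 called higher and, as deposited, 2 called lower. After quantile normalization 1 of them was called, at -0.69. Rpl14 rose by 0.83 (adjusted p = 0.0182) but read 0.03 as deposited, and it lost the call without DKO replicate 1, WT replicate 1 or WT replicate 2 (adjusted p = 0.114, 0.0559 and 0.0548). Rpl11 rose by 0.41 (adjusted p = 0.0447) and was called in only 2 of the 11 fits without 1 array, with adjusted p up to 0.161, and as deposited it fell by 0.39 (adjusted p = 0.0468).

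Other members were called as deposited but not relative to array medians. Rps19, the protein most often mutated in human Diamond-Blackfan anaemia, read 13.21 and 13.50 in DKO and 14.12, 14.16 and 14.05 in WT. Both DKO arrays were lower as deposited, with a difference of -0.75 (adjusted p = 0.00124), against 0.04 relative to array medians (adjusted p = 0.834). Rplp0 had -0.50 as deposited (adjusted p = 0.00493) and 0.30 relative to array medians (adjusted p = 0.0654), and Rpl13a, which in human cells is released from the ribosome to silence mRNAs, had -0.48 (adjusted p = 0.0113) and 0.32 (adjusted p = 0.0742).

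The relatives of the core proteins gave the one gene with a lower value that stood in every scaling and at every left-out array. Rpl7l1, a homologue of Rpl7, read 8.78 and 9.10 at 1426386_at in DKO, 10.44, 10.58 and 10.25 in Ets2KO, 10.92, 10.98 and 11.19 in Ets1KO, and 10.62, 10.81 and 11.15 in WT. As deposited, the DKO arrays were below all others by more than 1. Relative to array medians the DKO arrays read 0.48 and 0.80, and the lowest other array, Ets2KO replicate 3, read 1.17. The difference from WT was -1.13 on the median-centred scale (SE 0.19, adjusted p = 0.00234), -1.92 as deposited (adjusted p = 6.92e-05) and -1.20 after quantile normalization (adjusted p = 0.00196), and it passed in 11 of 11 fits without 1 array. Its brightest probe set had -0.17 (adjusted p = 0.640) and the remaining one -0.52 (adjusted p = 0.188), so the call rests on 1 of 3 probe sets. Rpl22l1 had 0.79 (adjusted p = 0.205), Rps27l, a p53-induced relative of Rps27, had 0.26 (adjusted p = 0.252), and Rps19bp1 had 0.07 (adjusted p = 0.899). The Rpl22l1 value again rests on WT replicate 3, without which it was 0.19. As deposited the Rpl22l1 means were 12.936 in DKO and 12.945 in WT. Over all 93 probe sets 3 were called the same way in all 3 scalings against WT (3.23%, where 17% of all probe sets were). Beside Rps6 and Rpl7l1 this was Rps18 1421837_at, with -0.57 (adjusted p = 0.0468), a call kept in 2 of the 11 fits without 1 array and reaching adjusted p = 0.186 without DKO replicate 2.

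Probe sets of 1 gene often gave different answers in DKO. Among the 21 genes with several probe sets, the median range of the difference within a gene was 0.51 in DKO against WT, compared with 0.17 in Ets2KO and 0.15 in Ets1KO against WT. All probe sets rose in 3 of these genes, some but not all in 15, none was called in 2 (Rps9 and Rps14), and Rpl7l1 had its 1 fall only (relative to array medians). Rps18, of the small subunit head, was the only gene called in both directions against WT, with 0.66 and 0.75 called higher, -0.57 called lower and -0.30 not called at its 4 probe sets. In DKO against Ets1KO the gene with opposite calls was Rpl37a, with 1416218_x_at at -0.79 (adjusted p = 0.0145) and another probe set at 0.54 (adjusted p = 0.0140). Without DKO replicate 1 the lower call was lost (adjusted p = 0.0951). Of the 93 probe sets, 45.2% carry the letter x or s, which marks probes shared with other transcripts, against 14.3% of all probe sets. With only probe sets of no letter, 24 were left, of which 5 rose and 2 fell in DKO against WT, with a median of 0.14, where 34.8% of all such probe sets passed. Most of these 24 lay outside the brightest decile, so letter and level cannot be told apart here.

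**Figure D4:**
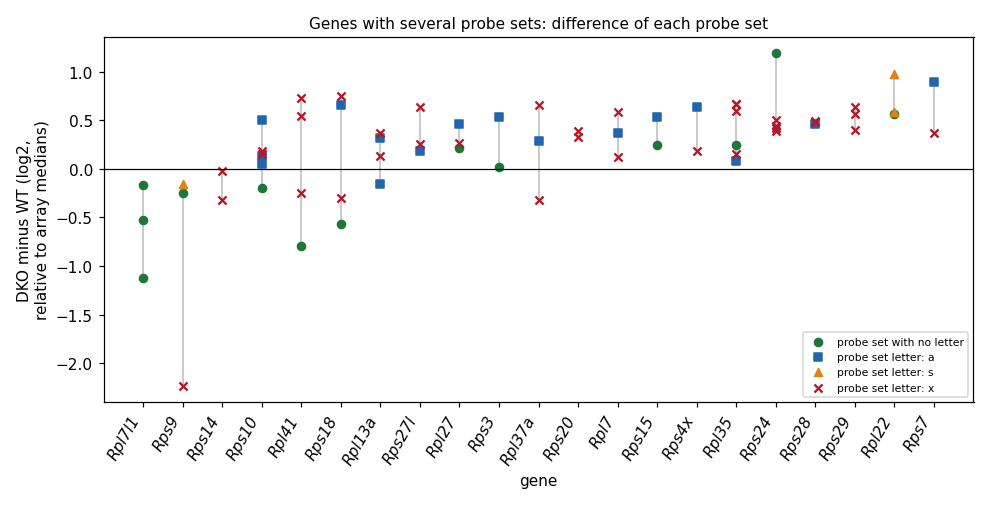
DKO minus WT (log2, relative to array medians) at each probe set of the 21 genes with more than 1, ordered by the gene's median, with the marker showing the letter in the probe set's name. Grey lines span the probe sets of a gene. Rps9 spans from -2.23 to -0.15 and Rps18 from -0.57 to 0.75.

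Against the single losses, which share the DKO arrays with the comparison above, the pattern was alike. In DKO against Ets1KO 42 probe sets rose and 2 fell relative to array medians (35.4% of all passed, 21.8% higher and 13.7% lower), and none rose and 57 fell as deposited (47.8% of all passed, 1.76% higher and 46% lower), with medians of 0.35 and -0.49. In DKO against Ets2KO 45 rose and 1 fell (35.2% of all passed, 20.2% higher and 14.9% lower), and 1 rose and 43 fell as deposited (48.8% of all passed, 3.12% higher and 45.7% lower), with medians of 0.38 and -0.40. Without DKO replicate 2 these counts relative to array medians were 29 in each comparison. Rps25 was higher in DKO than in Ets1KO by 0.90 (SE 0.26, adjusted p = 0.0227), but by 0.06 as deposited (adjusted p = 0.868), and the call was lost without DKO replicate 1 or Ets1KO replicate 3 (adjusted p = 0.152 and 0.0727). Rpl7l1 1426386_at was lower in DKO in both, with -1.25 against Ets1KO (adjusted p = 0.00150) and -0.71 against Ets2KO (adjusted p = 0.0184), and the second call was lost in 2 of 11 fits without 1 array, with adjusted p up to 0.115 without DKO replicate 1.

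The interaction asked whether loss of Ets2 had another effect in cells without Ets1 (DKO minus Ets1KO) than in cells with it (Ets2KO minus WT). Relative to array medians 25 probe sets were positive and 1 negative of 93, where 19.7% of all probe sets passed (10.3% positive and 9.36% negative), and as deposited none was positive and 31 were negative, where 35.5% of all passed (1.44% positive and 34% negative). The medians were 0.38 and -0.44. Leaving out 1 array, for which no share of all probe sets is given, moved the first total of 26 to between 8 and 33. The total was lowest without Ets2KO replicate 1 or Ets2KO replicate 2. It was 9 without Ets1KO replicate 3, 11 without Ets1KO replicate 2, 13 without DKO replicate 1, 14 without Ets1KO replicate 1, 15 without DKO replicate 2 and 16 without WT replicate 1. Rpl7l1 1426386_at was the one member called in all 3 scalings (-0.83 relative to array medians, adjusted p = 0.0488), and it was called in 3 of 11 fits without 1 array.

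Genes that build and run ribosomes were set beside the proteins themselves, from lists chosen with earlier results known. The ribosome assembly and rRNA synthesis list (82 genes, 146 probe sets) had lower values in most of its probe sets in Ets2KO, of which 1 passed. Its median in Ets2KO against WT was -0.40, with 127 of 146 probe sets below 0 and the groups not overlapping, with Ets2KO lower, at 83 of 146, against 13.6% of all probe sets. The mean of the list relative to array medians was 0.50, 0.51 and 0.27 in Ets2KO and 0.65, 0.70 and 1.01 in WT, with no overlap. Only Taf1d, of the factor that brings RNA polymerase I to ribosomal genes, passed (-0.71, SE 0.13, adjusted p = 0.0488, 1430147_a_at), where 0.633% of all probe sets passed. Its other probe sets had -0.87, -0.83, -0.53 and 0.20, none of them called. Of the 146 probe sets, 56 had an unadjusted p below 0.05, against 20.6% of all probe sets. Markers of other cell types also differed between these groups. The 4 probe sets of the 2 measured of 5 adipocyte markers averaged -0.31, 1.90 and 2.58 in Ets2KO and -2.47, -2.62 and 1.22 in WT, relative to array medians. The 9 probe sets of the 4 measured of 6 pericyte markers averaged 1.36, -0.28 and 2.16 in Ets2KO and -1.36, -0.61 and -1.45 in WT. The 5 measured of 8 smooth muscle markers, with 5 probe sets, averaged -0.02, -0.51 and -0.60 in Ets2KO and 0.03, 0.77 and -0.28 in WT. The 5 probe sets of the 3 measured of 9 leukocyte markers averaged -2.33 to -1.94 in Ets2KO and -2.06 to -1.99 in WT. Their part in the result was not tested. No probe set of the list passed when WT replicate 1 or 2 or any 1 of the Ets1KO or Ets2KO arrays was left out, while the median stayed between -0.47 and -0.29. In Ets1KO against WT the list's median was -0.01. In DKO against WT 16 of its probe sets rose and 35 fell relative to array medians, where 21.6% of all were higher and 14.4% lower, with a median of -0.25, and as deposited none rose and 103 fell, where 46% of all were lower. Rrp12, an export factor of both subunits, fell by 1.90 (adjusted p = 0.0169), and Taf1a, of the same factor as Taf1d, rose by 1.10 (adjusted p = 0.0320) but read 0.31 as deposited (adjusted p = 0.486).

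**Figure D5:**
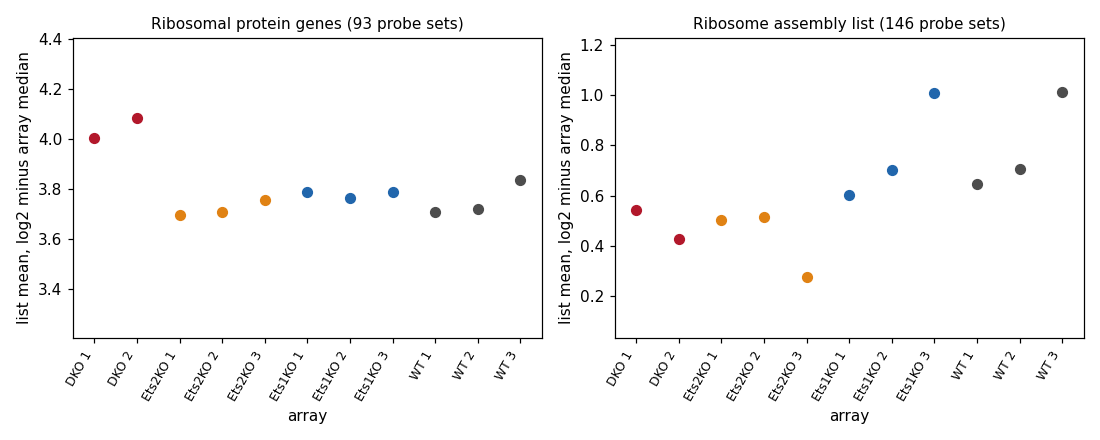
Mean log2 expression minus the array median on each of 11 arrays for the 93 ribosomal protein probe sets (left) and the 146 probe sets of the ribosome assembly list (right), on axes of equal span. The assembly list is lower in all 3 Ets2KO arrays (0.27 to 0.51) than in WT (0.65 to 1.01), while the ribosomal protein mean is 3.70 to 3.76 in Ets2KO and 3.71 to 3.84 in WT.

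Translation factors showed no call in either single loss, where 0.00487% of all probe sets passed in Ets1KO and 0.633% in Ets2KO, each against WT. With shares so low, lists of this size would hold few or no calls in any case. In Ets2KO against WT the median was -0.25 for initiation factors (29 genes, 66 probe sets), -0.33 for elongation and termination factors (10 genes, 23 probe sets) and -0.16 for other TOP mRNAs (14 genes, 29 probe sets). In DKO against WT, relative to array medians, 12 probe sets of initiation factors rose and 12 fell, 3 of elongation and termination factors rose and 5 fell, and 5 of other TOP mRNAs rose and none fell, where 21.6% of all probe sets were higher and 14.4% lower. As deposited 1 of initiation factors rose and 44 fell, and none rose and 18 and 17 fell in the other two lists, where 2.87% of all were higher and 46% lower. Eif1b, a start-codon scanning factor, rose by 1.27 (adjusted p = 0.000587) and by 0.48 as deposited (adjusted p = 0.0366), and Eif3b, a scaffold of initiation, fell by 0.97 (adjusted p = 0.00577). Eef1a1, which brings aminoacyl-tRNA to the ribosome and has a TOP mRNA itself, rose by 0.45 relative to array medians (adjusted p = 0.0160) and fell by 0.34 as deposited (adjusted p = 0.0299). Tpt1, another TOP mRNA, rose by 0.60 (adjusted p = 0.00515) and read -0.20 as deposited (adjusted p = 0.188). Among regulators of TOP mRNAs and of ribosomal protein genes (19 genes, 33 probe sets) 5 probe sets rose and 11 fell relative to array medians, and none rose and 20 fell as deposited. Akt1s1, an inhibitor of mTOR complex 1, fell by 2.35 on the median-centred scale (SE 0.21, adjusted p = 0.000123) and by 3.15 as deposited (adjusted p = 7.34e-06).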

How the data were processed

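The authors deposited log2 expression per probe set. The submitters' processing notes name RMA, with a version not given in the sources used here. These values were used as deposited, after subtraction of each array's median, and after quantile normalization. Probe sets were named from the platform annotation (18824 with 1 symbol, 549 with several, 1150 with none listed). All 20523 probe sets were fitted in limma 3.58.1 (R 4.3.3) with 4 group means over 11 arrays (lmFit and eBayes, 7 residual degrees of freedom), with the Benjamini and Hochberg adjustment over all probe sets of a comparison and 0.05 as the threshold. SE is limma's standard error. The fit was tested on simulated data. Promoters and figures used Python 3.11.15 and matplotlib 3.10.9. The number of arrays limits the precision.

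The members and lists were chosen with earlier results of these data known. Genes were named by a rule: a fixed set of 7 measured core proteins (with Rpl5, not among the members), the 4 relatives, and the largest called rises and falls (up to 4 each) or, with none called, the 2 largest differences in each direction, over the brightest probe sets. Rps18 and Rpl37a are named for opposite calls, and Rps3 was chosen after its values were seen. Titles and genotypes were followed where short descriptions of Ets1KO and Ets2KO say wild type. DKO column 3 was left out. The comparison of all 3 scalings, the left-out arrays for single probe sets and for the assembly list, the shared probe sets and the promoter hexamer were chosen after seeing the data.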

Additional observations from a re-analysis of the deposited data

Results flagged for a closer look

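The difference in Ets2 loss effect between cells without and with Ets1 passed the test for 9 of 19 named genes at their brightest probe set (limma interaction, relative to array medians), where 19.7% of all probe sets passed and 10.3% did so with a positive value. Some of these genes were named for this same result or for DKO calls that share its arrays, so the 9 are no separate support. Over the brightest probe sets of all 46 genes, 19 were positive and none negative. As deposited none was positive and 13 were negative, where 1.44% and 34% of all probe sets were. The interaction was 1.75 for Rps25 (SE 0.34, adjusted p = 0.00904), with 0.90 in DKO against Ets1KO and -0.84 in Ets2KO against WT. It was 1.20 for Rps6 (adjusted p = 0.0100), 1.10 for Rpl14 (adjusted p = 0.0320), 0.86 for Rpl41 (adjusted p = 0.00540) and 0.79 for Rps7 (adjusted p = 0.00817). For Rpsa it was 0.71 (adjusted p = 0.0166), for Rpl11 0.70 (adjusted p = 0.0293), for Rpl38 0.65 (adjusted p = 0.0161) and for Rps4x 0.56 (adjusted p = 0.0355). After quantile normalization Rps25, Rps6 and Rpl14 passed (adjusted p = 0.0181, 0.0344 and 0.0462) and the other 6 did not (limma adjusted p from 0.253 to 0.810). As deposited none of the 9 passed (limma adjusted p from 0.0681 to 0.9005). Without 1 array at a time Rps25, Rps6, Rpl41, Rps7, Rpsa and Rpl38 passed in all 11 fits, Rpl11 and Rpl14 in 4 and Rps4x in 3.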

How the results depend on the processing

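As deposited, the median member difference changed sign, to -0.42 in DKO against WT, -0.49 against Ets1KO, -0.40 against Ets2KO and -0.44 in the interaction. Named members that changed sign and were called on at least 1 of the 2 scales were, in DKO against WT, Rpl11 -0.39, Rpl13a -0.48, Rpl27a -0.76, Rpl41 -0.061, Rplp0 -0.50, Rps19 -0.75, Rps27l -0.54, Rps4x -0.16 and Rpsa -0.24. Against Ets1KO they were Rpl11 -0.26, Rpl13a -0.45, Rpl38 -0.10, Rpl41 -0.018, Rplp0 -0.47, Rps19 -0.77, Rps27l -0.46, Rps4x -0.25, Rps7 -0.019 and Rpsa -0.24. Against Ets2KO they were Rpl11 -0.25, Rpl13a -0.48, Rpl38 -0.063, Rpl41 -0.0018, Rplp0 -0.52, Rps19 -0.77, Rps27l -0.61, Rps4x -0.17 and Rpsa -0.11, and in the interaction Rpl11 -0.12, Rpl38 -0.17, Rplp0 -0.49, Rps19 -0.79, Rps4x -0.26, Rps7 -0.029 and Rpsa -0.11. Sign changes of members called on neither scale are not listed. The scales differ by the array medians alone, which are lower in DKO. After quantile normalization, where the cause was not tested, Rpl13a (-0.11) and Rplp0 (-0.13) in DKO against Ets1KO and Rps19 (-0.39) in DKO against Ets2KO changed sign among those called on at least 1 scale, the counts of calls were 10, 9, 11 and 7 (DKO against WT, Ets1KO, Ets2KO, and the interaction) and the medians -0.034, -0.057, 0.0062 and -0.068. With 1 probe set a gene the counts were 26, 28 and 27, and the medians 0.47 against Ets1KO, 0.48 against Ets2KO and 0.45 in the interaction. With probe sets of no letter the counts were 7, 7, 7 and 5 and the medians 0.14, -0.0060, 0.18 and 0.018, over 24 probe sets. Most of these 24 lay outside the brightest decile. In the brightest decile the median of DKO against Ets2KO was 0.47. With all 12 columns the interaction gave 42 calls. With only the groups compared, DKO against WT gave 8 calls and DKO against Ets2KO 20.

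Leaving out 1 array gave 0 to 1 calls in Ets1KO and in Ets2KO against WT, 25 to 48 in DKO against WT, 29 to 50 against Ets1KO, 29 to 52 against Ets2KO and 8 to 33 in the interaction. The medians ran from 0.010 to 0.048, -0.0084 to 0.031, 0.34 to 0.44, 0.26 to 0.40, 0.36 to 0.43 and 0.34 to 0.43. Over all results and alternatives, 2051 values were labelled the same. These were members called in both fits with the same sign, members called in neither whatever their sign, medians within their spread, and similar call counts. Of the others, 103 kept their sign but lost the call, 33 gained it with the same sign, 42 reversed, and 42 medians or call counts moved further. Shares of all probe sets are not given beside most of these call counts, so a general loss of calls cannot be told apart. Same-numbered arrays showed no common pairing, as their deviations correlated at -0.31 to 0.10. WT replicate 3, however, was nearest to Ets1KO replicate 3, over all probe sets (r = 0.926) and over members (r = 0.991). Every other array was nearest to an array of its own group. Whether WT replicate 3 and Ets1KO replicate 3 were handled together was not tested. With the replicate block the calls were 0, 0, 35, 35, 36 and, in the interaction, 11. DKO has 2 arrays, members read near the top of the scale, and neither depth nor a background level was read from the files.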
